A study of Homo sapiens with 4 samples.

Results

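Hematopoietic differentiation of human induced pluripotent stem cells, here of the line BC1, passes through APLNR+ mesoderm cells and then through CD31+CD34+ hemogenic endothelial progenitors (HEPs), and the transcriptomes of these 2 sorted populations were compared gene by gene. APLNR is the apelin receptor, CD31 is the adhesion protein encoded by PECAM1, and CD34 is a sialomucin of endothelial and blood progenitors. Of the 58274 gene identifiers of the deposited table, the 15502 with at least 1 FPKM (fragments of a gene scaled to its transcript length and to the size of the library) in either of the 2 libraries were compared, and 13105 of them were protein-coding. The APLNR+ library came from day 2 of culture, after activin A at 40 ng/ml and BMP4 at 50 ng/ml according to the labels, and the CD31+CD34+ library from day 5, after the same start followed by VEGF at 40 ng/ml and bFGF at 50 ng/ml. The study's methods give the activin A and BMP4 doses the other way round. Both populations were sorted from cultures of this 1 cell line, no mutation or transgene is named in the labels, and 2 ug of total RNA went into each library. The series holds 4 libraries in all, and the other 2, undifferentiated BC1 cells and CD43+ hematopoietic progenitor cells (HPCs) of day 8, are given only as context. Each population has 1 library, so no difference below has a replicate check, and day, medium and sorted population cannot be told apart.

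Hemogenic endothelium is endothelium from which the first blood cells bud. It forms from mesoderm under VEGF receptor signaling, and ETS, SOX, GATA and SCL/TAL1 family transcription factors act together in this step. Endothelium is known for its adherens junctions, its caveolae, its control of blood flow and clotting, and the arterial or venous character that Notch signaling and NR2F2 help to set.

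The labels were first checked against marker genes. Among 12 endothelial markers, 11 were higher in the CD31+CD34+ library by at least 1 on the log2(FPKM + 1) scale. CLDN5, a tight junction gene of mature endothelium, was the exception at 1.26 and 2.94 FPKM. The summed level of the 12 markers was 84.8 FPKM in the APLNR+ library and 3011 FPKM in the CD31+CD34+ library. Most of the first sum was KDR, at 69.96 FPKM. Most of the second was PLVAP and KDR, at 1449.5 and 569 FPKM, so the sums say little about the other markers. Of 7 mesoderm markers, 7 were lower by at least 1 in CD31+CD34+, where EOMES, TBXT and MIXL1 were under 1 FPKM. APLNR itself was at 1073 FPKM in APLNR+ and still at 209 FPKM in CD31+CD34+. PECAM1 and CD34 among the endothelial markers and APLNR among the mesoderm markers encode the sorting antigens. The sort itself favored their differences, so these genes are no independent check of the labels. PTPRC, the gene of the leukocyte marker CD45, was at 0.0320 and 0.00974 FPKM. It was at 0.0320 FPKM in CD43+ HPCs too, so its near absence does not tell HEPs from HPCs. The genes of the endothelial label were thus present, while blood genes other than PTPRC were detected and are described with the blood lists.

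Differences are given throughout as log2(FPKM + 1) in CD31+CD34+ minus that in APLNR+, and "higher" or "lower" without a qualifier means by at least 1 on this scale. Where 2 FPKM values follow a gene without further words, the first is that of APLNR+ cells and the second that of HEPs. Of the 15502 genes, 2229 were higher in CD31+CD34+ (14.4%) and 1957 were lower (12.6%). At the stricter limit of 2, 699 genes were higher (4.51%) and 539 lower (3.48%). The median difference over all genes was 0.03, and 45.2% of the genes lay within 0.5 of no difference. In all, 12572 genes reached 1 FPKM in both libraries, 1374 only in APLNR+ and 1556 only in CD31+CD34+, and a list member that passed through 1 library alone had to lean toward it. These shares are the background against which each list below is read. In these bulk libraries fewer cells of a type and less RNA per cell cannot be told apart. The depth recovered from the values was about 21100000 mapped fragments for APLNR+ and 23300000 for CD31+CD34+, so that 1 FPKM of a transcript of 2000 bases stood for about 37.0 and 40.2 fragments. Fold changes carry exact 95% intervals from these fragments, which cover counting error only.

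**Figure D1:**
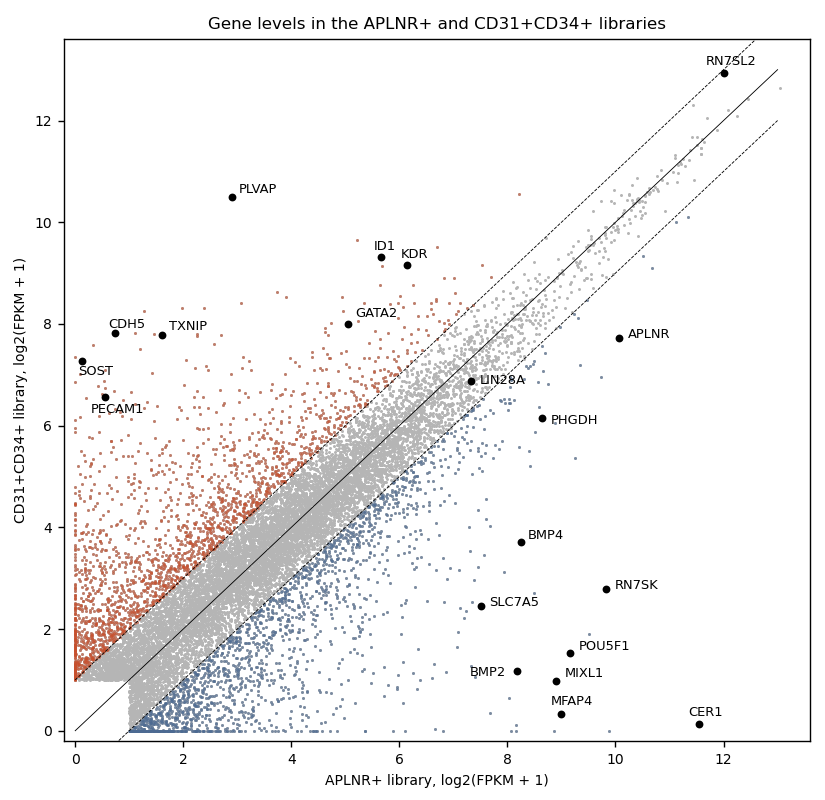
Level of each of the 15502 genes in the APLNR+ library (x axis) and the CD31+CD34+ library (y axis), both as log2(FPKM + 1). Red points are the 2229 genes higher and blue points the 1957 genes lower in CD31+CD34+ by at least 1, dashed lines mark a difference of 1 either way, and the named black points show PLVAP far above the diagonal at 1449.5 FPKM and CER1 far below it at 2991 FPKM in APLNR+.

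Genes at the extremes were ranked among those whose higher value was at least 10 FPKM and with annotated transcripts of at least 300 bases. The first upward was PLVAP, which encodes the diaphragm protein of fenestrated endothelium (chromosome 19, 17351448 to 17377350, GRCh38). It was at 6.50 FPKM in APLNR+ cells against 1449.5 FPKM in HEPs, a 223-fold higher level with a 95% interval of 169.9 to 300.4. The first downward was CER1, a secreted inhibitor of Nodal and BMP (chromosome 9, 14719724 to 14722717). It was the 14th most abundant transcript of APLNR+ at 2991 FPKM, and in CD31+CD34+ it was at 0.0905 FPKM, a 33058-fold lower level with a 95% interval of 9056 to 270148. Its level in CD31+CD34+ rested on about 2 fragments, so the fold is known only within this wide interval. CER1 was also low in BC1, at 2.50 FPKM, and in CD43+, at 0.0497 FPKM, and so was high in 1 of the 4 libraries.

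Promoter windows were read for the genes at the extremes, since ETS factors are known regulators of endothelial genes and their own genes FLI1 and ERG stood far apart between the libraries. RefSeq windows (GRCh38.p14, 250 bases before to 50 after the gene's start, 300 bases in all) existed for 470 of the 699 genes higher by at least 2 and for 326 of the 539 lower by at least 2. The ETS motif AGGAAG, searched on both strands, was in 43.4% of the former windows, in 28.2% of the latter, in 32.5% of the windows of the protein-coding genes compared and in 33.7% of all 27305 windows. The GATA motif AGATAA, searched likewise, was in 7.66% and 7.06% of the windows of the higher and lower genes, in 5.07% of those of the protein-coding genes compared and in 10.5% of all windows. A match is a description of the letters and not a binding site. The windows of PLVAP (chr19:17377293-17377592, minus strand), the receptor gene TIE1 (chr1:43300732-43301031, plus strand), the endothelial chemotaxis gene ECSCR (chr5:139462694-139462993, minus strand) and the sorting marker CD34 (chr1:207911076-207911375, minus strand) are shown 5′ to 3′ on the gene's strand. These genes are examples picked by hand from the 30 with the largest differences upward. The share of matches over those 30 was not counted. Capitals mark AGGAAG or its reverse complement CTTCCT.
PLVAP: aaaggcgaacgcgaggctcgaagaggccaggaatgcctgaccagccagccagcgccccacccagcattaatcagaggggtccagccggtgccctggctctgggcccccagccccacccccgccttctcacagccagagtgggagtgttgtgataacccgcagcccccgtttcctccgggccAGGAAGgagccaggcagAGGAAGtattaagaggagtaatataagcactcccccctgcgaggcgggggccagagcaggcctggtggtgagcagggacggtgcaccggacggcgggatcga
TIE1: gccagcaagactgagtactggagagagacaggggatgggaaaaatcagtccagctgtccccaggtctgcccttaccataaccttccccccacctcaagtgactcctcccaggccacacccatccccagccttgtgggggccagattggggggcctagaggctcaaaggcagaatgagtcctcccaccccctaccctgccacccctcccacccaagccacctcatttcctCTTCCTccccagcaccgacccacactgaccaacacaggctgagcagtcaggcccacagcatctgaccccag
ECSCR: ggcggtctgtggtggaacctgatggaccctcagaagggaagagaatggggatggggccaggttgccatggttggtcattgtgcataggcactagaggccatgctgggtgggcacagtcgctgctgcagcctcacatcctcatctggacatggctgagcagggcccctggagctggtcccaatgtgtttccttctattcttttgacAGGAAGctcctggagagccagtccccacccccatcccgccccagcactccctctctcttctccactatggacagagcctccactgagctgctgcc
CD34: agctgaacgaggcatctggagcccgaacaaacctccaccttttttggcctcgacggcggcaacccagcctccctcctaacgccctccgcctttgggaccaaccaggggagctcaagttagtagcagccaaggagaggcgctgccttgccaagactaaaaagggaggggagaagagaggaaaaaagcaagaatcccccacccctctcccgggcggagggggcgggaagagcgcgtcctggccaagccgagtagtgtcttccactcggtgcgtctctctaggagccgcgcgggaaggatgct
PLVAP held 2 matches, beginning 69 and 52 bases before the start, ECSCR held 1 match 45 bases before the start, and TIE1 held 1 on the other strand 21 bases before the start. These letters were not in the CD34 window.

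Receptors of the VEGF and angiopoietin system were mostly higher. Of 16 genes of this system, 12 passed the filter, 8 were higher and 1 was lower, with a median difference of 1.93. TIE1, a partner receptor of the angiopoietin system, was at 226 FPKM in HEPs, compared with 1.17 FPKM in APLNR+ cells, a 194-fold higher level with a 95% interval of 149 to 256. TEK, the angiopoietin receptor itself, was at 1.85 and 82.5 FPKM. FLT4, the receptor of VEGF-C, was at 4.91 and 193 FPKM. KDR, the main VEGF receptor of endothelium, was already at 69.96 FPKM in APLNR+ cells and reached 569 FPKM in HEPs. The ligand gene VEGFA was at 34.7 FPKM in the APLNR+ library and 23.3 FPKM in the CD31+CD34+ library, within 1 on the log2 scale, and ANGPT2, a context-dependent antagonist of TEK, was lower at 5.63 and 0.633 FPKM.

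Arterial and venous genes were both mostly higher. Of 20 arterial genes, 18 passed, 11 were higher and 0 lower, with a median of 1.88. The gap junction genes GJA5 (0.590 and 51.2 FPKM) and GJA4 (1.30 and 49.4 FPKM) and the receptor gene ACVRL1 (2.80 and 81.2 FPKM) led this list. Of 14 venous genes, 11 passed, 9 were higher and 2 lower, with a median of 3.16. NR2F2, the nuclear receptor of venous identity, was at 0.211 FPKM in APLNR+ cells against 23.4 FPKM in HEPs. STAB1, a scavenger receptor of sinusoidal endothelium and the leading venous gene, was at 0.466 and 136 FPKM, and APLNR, which the venous list also holds, was its lowest member. SOX17, a factor of arterial and hemogenic endothelium, was at 16.6 and 11.8 FPKM and so was within 1 of no difference.

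The Notch pathway, which links arterial fate to the emergence of blood, had 23 of 24 genes passing, with 10 higher, 3 lower and a median of 0.59. Higher genes included the fringe enzymes that tune Notch receptors, MFNG (0.363 and 57.7 FPKM) and LFNG (1.72 and 31.8 FPKM). The ligand gene DLL4 was at 17.97 FPKM in HEPs, compared with 0.420 FPKM in APLNR+ cells, and JAG2 was at 1.80 and 26.2 FPKM. DLL3, a ligand of the presomitic mesoderm that does not activate Notch on neighbouring cells, went the other way, at 137 and 4.33 FPKM. NOTCH1 had the highest FPKM of the 4 Notch receptor genes in CD31+CD34+, at 128 FPKM, against 13.8 FPKM in APLNR+.

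Cell junction genes were mostly higher. Of 26 genes, 24 passed, 13 were higher and 2 lower, with a median of 1.06. CDH5, the VE-cadherin of endothelial adherens junctions (chromosome 16, 66366622 to 66404786), was at 0.663 FPKM in the APLNR+ library and 224 FPKM in the CD31+CD34+ library, a 338-fold higher level with a 95% interval of 221 to 535. ESAM, PECAM1 and ICAM2, immunoglobulin-type adhesion genes of endothelium, were at 97.99, 93.1 and 71.9 FPKM in HEPs and under 1 FPKM in APLNR+ cells. The lower pair was CDH2, the N-cadherin gene (45.3 and 10.003 FPKM), and GJA1, the gene of connexin 43 (339 and 44.4 FPKM). Of caveolae and vesicle traffic genes, 16 of 16 passed, 7 were higher and 2 lower, with a median of 0.71, and of these 5 were higher and 0 lower by at least 2. Next to PLVAP, the caveolar coat gene CAVIN1 was at 3.76 and 222 FPKM. CAV1, the caveolin gene itself, was at the low levels of 0.523 FPKM in APLNR+ cells against 4.75 FPKM in HEPs.

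Genes of vascular tone were mostly higher. Of 23 nitric oxide and vasoactive peptide genes, 16 passed, 9 were higher and 3 lower, with a median of 2.00. CALCRL, the adrenomedullin receptor, was at 23.98 FPKM in HEPs, compared with 0.0535 FPKM in APLNR+ cells. ACE, the angiotensin converting enzyme, was at 2.06 and 43.4 FPKM, and NOS3, the endothelial nitric oxide synthase, at 8.16 and 93.7 FPKM. APLN, the ligand of APLNR, was at 0.174 FPKM in the APLNR+ library and 7.92 FPKM in the CD31+CD34+ library, opposite to its receptor. The endothelin receptor gene EDNRA was lower, at 6.65 and 0.525 FPKM. Receptors coupled to G proteins for lipids, proteases and adhesion had 26 of 28 genes passing, 16 higher, 3 lower and a median of 1.71. F2RL2, a protease-activated receptor, was at 1.75 and 221 FPKM, a 126-fold higher level with a 95% interval of 101 to 159, and was also at 156 FPKM in CD43+. LPAR6, a receptor of lysophosphatidic acid, was at 0.586 and 26.2 FPKM, whereas LPAR3 of the same family was at 3.43 and 0.115 FPKM. Among RGS genes, which shorten such signals, 12 of 21 passed, 5 were higher and 0 lower, led by RGS5 at 12.3 and 393 FPKM.

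Clotting genes were mostly higher. Of 24 hemostasis genes, 23 passed, 13 were higher and 6 lower, with a median of 1.90. TFPI, the inhibitor of tissue factor, was at 1.40 FPKM in APLNR+ cells against 304 FPKM in HEPs, a 217-fold higher level with a 95% interval of 135 to 399. The multimerin gene MMRN2 (0.363 and 71.5 FPKM) and TFPI2 (3.64 and 139.5 FPKM) were also higher. VWF, the platelet-binding factor of endothelium, reached 13.7 FPKM from 0.484 FPKM. The lower genes included the plasma factors F10 (6.86 and 1.33 FPKM) and SERPINC1, which encodes antithrombin (5.91 and 0.998 FPKM), and SERPINE2, a protease inhibitor of the matrix (851 and 122 FPKM). Complement genes were more often lower, with 22 of 28 passing, 5 higher, 10 lower and a median of -0.70. FCN3, a lectin that starts the complement cascade, was at 192 FPKM in HEPs, compared with 0.254 FPKM in APLNR+ cells, a 755-fold higher level with a 95% interval of 302 to 2846, and at 0.558 FPKM in CD43+. CLU and C3 were lower, at 102 and 16.03 FPKM and at 20.6 and 3.15 FPKM. Scavenger and endocytic receptors had 20 of 26 genes passing, 9 higher, 4 lower and a median of -0.06, which was 1.19 over the members that passed a limit of 5 FPKM. STAB1, SCARF1 (0.126 and 41.9 FPKM), CD93 (0.354 and 33.5 FPKM) and MRC1 (0.0944 and 13.8 FPKM) were among the higher genes.

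**Figure D2:**
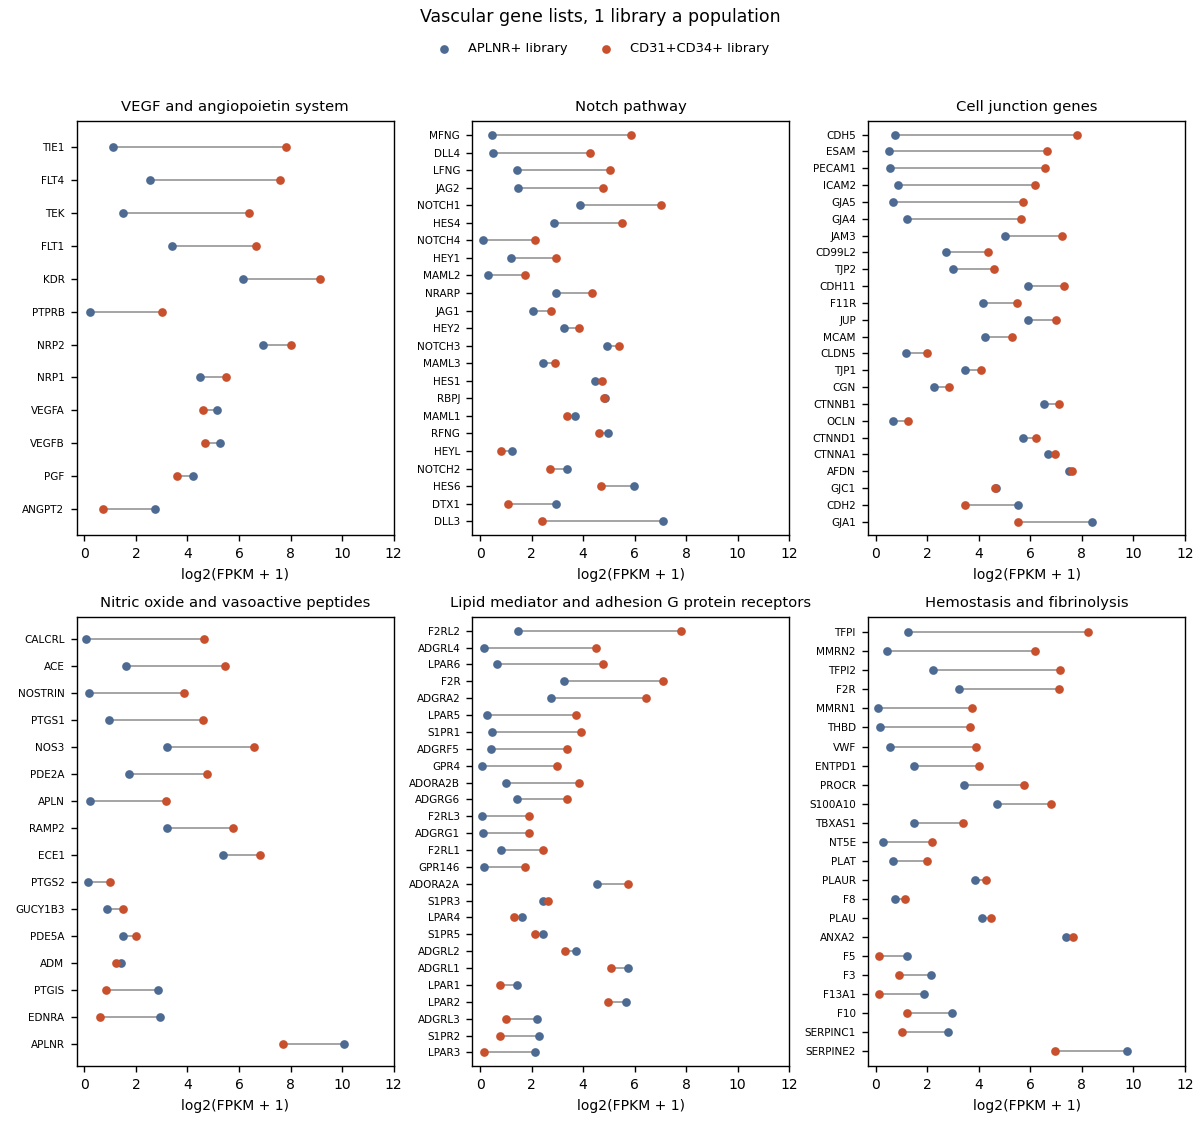
Level of the genes that passed the filter in 6 vascular lists, as log2(FPKM + 1) on the x axis, with blue points for the APLNR+ library and red points for the CD31+CD34+ library joined by a line and genes ordered by their difference. Receptors such as TIE1 (1.17 and 226 FPKM) stand at the top of their panel, and the ligand genes VEGFA, VEGFB and PGF have their 2 points close together.

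Transcription factor families differed in how many members stood apart. Of 34 blood and endothelial bHLH and partner factors, 30 passed, 17 were higher and 2 lower, with a median of 1.39. LMO2, the bridging factor of the blood and endothelial complex, was at 0.459 FPKM in the APLNR+ library and 107 FPKM in the CD31+CD34+ library. TAL1, its bHLH partner, was at 0.0608 and 71.2 FPKM. GFI1B and GFI1, repressors that silence the endothelial program as blood emerges, were at 35.9 and 27.9 FPKM in HEPs and at 0.0338 and 0.0958 FPKM in APLNR+ cells. Of 27 ETS factors, 22 passed, 8 were higher and 3 lower, with a median of 0.53. FLI1 was at 2.95 FPKM in APLNR+ cells against 316 FPKM in HEPs, a 107-fold higher level with a 95% interval of 94.1 to 123, and ERG was at 0.543 and 75.1 FPKM. SPI1, the myeloid ETS factor PU.1, was at 1.12 and 32.04 FPKM.

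The GATA family was divided. Of 9 genes with their cofactors, 9 passed, 4 were higher and 2 lower, with a median of 0.41. GATA2, the factor of blood progenitors, was at 254 FPKM in HEPs, compared with 32.03 FPKM in APLNR+ cells. GATA1, the erythroid factor, was listed at 0 in APLNR+ and reached 13.4 FPKM in CD31+CD34+. GATA4 and GATA6, factors of cardiac mesoderm and endoderm, were lower, at 122 and 41.6 FPKM and at 363 and 57.8 FPKM. GATA5, which belongs to the same subfamily, was in contrast higher at 1.66 and 34.2 FPKM. Of 19 SOX genes, 12 passed, 5 were higher and 1 lower. SOX7 and SOX18, which act in early endothelium, were at 84.5 and 140.0 FPKM in HEPs and at 1.16 and 7.45 FPKM in APLNR+ cells. KLF genes had 15 of 18 passing, 4 higher and 3 lower. KLF2, known as a flow-responsive endothelial factor, was at 0.796 FPKM in the APLNR+ library and 51.4 FPKM in the CD31+CD34+ library. Of 17 T-box genes, 7 passed, 0 were higher and 4 lower. EOMES was at 205 and 0.280 FPKM, T (TBXT) at 12.2 and 0.0563 FPKM, TBX6 at 17.5 and 4.08 FPKM and TBX3 at 68.98 and 23.9 FPKM.

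HOX genes, which specify position along the body axis, separated by cluster. Of 10 HOXB genes, 8 passed, 7 were higher and 0 lower, with a median of 2.15. HOXB3 was the most abundant on the FPKM scale, at 24.2 FPKM in APLNR+ cells against 169.8 FPKM in HEPs. HOXB4, studied as a factor of blood stem cell growth, had the largest difference of the cluster, 3.37, at 0.573 and 15.3 FPKM. HOXB5, HOXB8, HOXB9, HOXB7 and HOXB2 were higher by 2.71, 2.20, 2.09, 1.59 and 1.25, and HOXB6 differed by 0.58. None of 11 HOXA genes and none of 18 HOXC and HOXD genes reached 1 FPKM in either library. The nearest was HOXD1, at 0.163 and 0.774 FPKM.

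No gene of the Nodal pathway, a signal of the primitive streak, was higher in CD31+CD34+. Of 26 Nodal and activin pathway genes, 20 passed, 0 were higher and 12 lower, with a median of -1.12. After CER1, the largest differences were those of TDGF1, the Nodal coreceptor Cripto (259.9 and 0.559 FPKM), and FST, the activin inhibitor follistatin (44.8 and 1.19 FPKM). NODAL itself was low in both libraries, at 0.0306 FPKM in HEPs, compared with 1.41 FPKM in APLNR+ cells. Activin A was in the medium of the first 2 days only, and its part in these differences was not tested.

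BMP pathway genes differed in both directions. Of 38 genes, 26 passed, 9 were higher and 6 lower, and the median was -0.06. The ligand genes BMP2 (287 and 1.25 FPKM), BMP4 (305 and 12.03 FPKM) and BMP7 (8.02 and 0.646 FPKM) were lower, as was the inhibitor NOG, which encodes noggin (29.1 and 0.893 FPKM). BMP6 was the ligand gene with the largest difference upward, at 0.148 and 7.30 FPKM. ID1, a direct target of BMP signaling, was at 49.5 FPKM in the APLNR+ library and 636 FPKM in the CD31+CD34+ library, and ID2 was at 65.6 and 321 FPKM. SOST, a secreted inhibitor of Wnt coreceptors first described in bone, was the third gene of the whole comparison by difference (chromosome 17, 43753731 to 43758788). It was at 0.0914 FPKM in APLNR+ cells against 154 FPKM in HEPs, a 1687-fold higher level with a 95% interval of 653 to 6143, and at 0.0498 FPKM in BC1 and 0.505 FPKM in CD43+, so that the CD31+CD34+ library stood apart from the other 3. Its level in APLNR+ rested on about 4 fragments, which is why the interval is wide. Of 17 TGF-beta ligand and receptor genes, 13 passed, 6 were higher and 2 lower, with a median of 0.76. The endothelial receptors ACVRL1 and ENG led them, ENG at 3.94 and 74.04 FPKM, while PMEPA1, a target and inhibitor of the pathway, was lower at 53.6 and 9.20 FPKM.

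Wnt ligand genes were mostly lower, with WNT11 as the exception. Of 19 ligand genes, 7 passed, 1 was higher and 4 were lower. WNT5A was at 1.41 FPKM in HEPs, compared with 159.5 FPKM in APLNR+ cells, a 113-fold lower level with a 95% interval of 93.5 to 137. WNT4 was at 18.9 and 0.201 FPKM, WNT8A at 2.24 FPKM and listed at 0, and WNT6 at 1.42 and 0.0297 FPKM. WNT11 was at 0.615 and 46.6 FPKM, and WNT3 and WNT5B differed by -0.89 and 0.58. Among 45 receptors, inhibitors and targets, 36 passed, 3 were higher and 17 lower, with a median of -0.94. The receptor gene FZD7 was at 244 and 7.70 FPKM, FZD8 at 117 and 6.95 FPKM, and LGR5, a Wnt target and receptor of R-spondins, at 30.4 and 0.196 FPKM. The secreted inhibitors were divided, with DKK1 at 17.3 and 0.789 FPKM and SFRP1 at 7.72 and 41.6 FPKM.

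Of 22 FGF ligand genes, 9 passed, 1 was higher and 5 lower. FGF8, a ligand of the streak, was at 17.1 FPKM in APLNR+ and listed at 0 in CD31+CD34+. Of 19 FGF receptors and ERK feedback genes, 17 passed, 3 were higher and 5 lower. The feedback inhibitors SPRY1 (20.3 and 136 FPKM) and DUSP6 (6.64 and 39.7 FPKM) were higher, while the receptor gene FGFR2 was lower at 20.8 and 2.19 FPKM.

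No gene of the retinoic acid pathway was higher. Of 19 genes, 16 passed and 10 were lower, with a median of -1.15. CYP26A1, the enzyme that degrades retinoic acid, was at 286 FPKM in the APLNR+ library and 0.0830 FPKM in the CD31+CD34+ library, a 3452-fold lower level with a 95% interval of 1243 to 11689. CRABP1 and CRABP2, which carry retinoic acid inside the cell, were at 51.8 and 0.601 FPKM and at 384 and 81.1 FPKM. RBP4, the plasma carrier of retinol, was at 25.6 and 3.88 FPKM and is also a liver gene. Of 20 Hippo and mechanosensing genes, 18 passed, 3 were higher and 4 lower. The coactivator gene YAP1 was at 74.8 and 19.8 FPKM and its partner TEAD1 at 101 and 7.96 FPKM, whereas AMOT, which binds YAP1, was at 0.916 and 13.1 FPKM. In the IGF system, 14 of 17 genes passed with 4 higher and 3 lower, and the median was -0.57. By at least 2, 3 were higher and 2 lower. The binding protein genes IGFBP4 (102 and 725 FPKM) and IGFBP2 (112 and 478 FPKM) were among the higher ones.

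**Figure D3:**
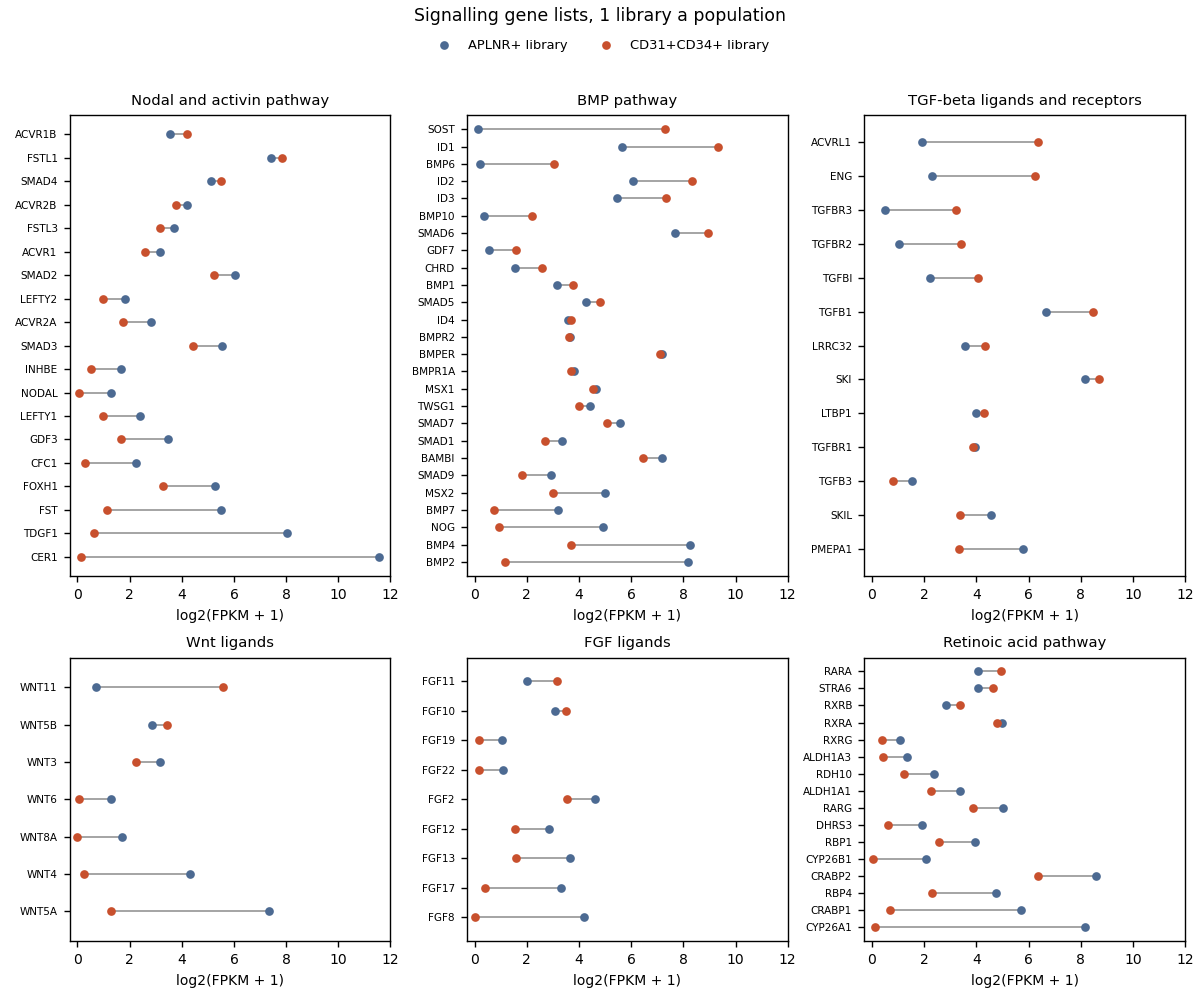
Level of the genes that passed the filter in 6 signaling lists, as log2(FPKM + 1) on the x axis, with blue points for the APLNR+ library and red points for the CD31+CD34+ library joined by a line. CER1 and CYP26A1 have their red points near 0, at 0.0905 and 0.0830 FPKM, and SOST has its blue point near 0, at 0.0914 FPKM.

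Matrix genes differed in both directions. Of 44 collagen genes, 30 passed, 9 were higher and 11 lower, with a median of 0.15. COL1A1, of fibrillar collagen, was at 22.9 FPKM in APLNR+ cells against 184 FPKM in HEPs, and COL4A1, of basement membrane collagen, at 19.3 and 80.9 FPKM. COL5A2 was lower at 182 and 41.02 FPKM, and COL13A1, a transmembrane collagen, at 37.1 and 3.08 FPKM. Basement membrane genes other than collagens had 18 of 23 passing, 9 higher and 6 lower, with a median of 1.01. The nidogen genes NID1 (13.2 and 77.3 FPKM) and NID2 (2.43 and 19.3 FPKM) were higher, and NTN4 was lower at 21.8 and 0.741 FPKM. Proteoglycan and hyaluronan genes were the matrix list with the lowest median, -1.39, with 20 of 29 passing, 3 higher and 11 lower. HAS2, the hyaluronan synthase, was at 145 and 3.66 FPKM, and FMOD, encoding fibromodulin, at 17.5 and 0.573 FPKM. BGN, encoding biglycan, was higher at 2.90 and 77.9 FPKM, as was CD44, the hyaluronan receptor, at 13.1 and 97.5 FPKM. MFAP4, a microfibril-associated gene and the second of the whole comparison downward, was at 0.264 FPKM in HEPs, compared with 511 FPKM in APLNR+ cells, a 1939-fold lower level with a 95% interval of 1036 to 3974. Integrins had 17 of 26 genes passing, 8 higher and 1 lower. ITGA2B and ITGB3, which together form the platelet fibrinogen receptor, were at 60.9 and 6.68 FPKM in HEPs and at 3.74 and 0.0673 FPKM in APLNR+ cells. The single lower integrin, ITGB5, was at 343 and 35.8 FPKM.

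Genes of cell shape and movement were divided as well. S100 and annexin genes, which bind calcium, had 16 of 31 passing, 7 higher and 1 lower. S100A4 was at 7.34 and 340.0 FPKM and S100A16 at 4.36 and 143 FPKM. The cytoplasmic actin genes ACTB and ACTG1 were lower, at 2235 and 1032 FPKM and at 2588 and 1101 FPKM. Guidance genes were divided, with PLXND1, the endothelial semaphorin receptor, at 48.7 and 432 FPKM and PLXNA2 at 161 and 4.81 FPKM. Of 31 semaphorin, plexin and neuropilin genes, 28 passed, 8 were higher and 7 lower.

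Targets of p53, the stress-activated tumor suppressor, were mostly higher in CD31+CD34+. Of 20 genes, 20 passed, 13 were higher and 0 lower, with a median of 1.40. CDKN1A, the cell cycle inhibitor p21 (chromosome 6, 36676460 to 36687339), was at 23.7 FPKM in APLNR+ cells against 228 FPKM in HEPs, a 9.64-fold higher level with a 95% interval of 9.01 to 10.3. DDB2, of nucleotide excision repair, was at 15.4 and 102 FPKM. GDF15, a secreted stress factor, was at 25.02 and 159.9 FPKM, and TP53INP1 was at 3.41 and 24.4 FPKM. MDM2, the inhibitor of p53 and its target, was at 13.8 and 24.9 FPKM, and BAX, of apoptosis, at 491 and 621 FPKM, both within 1 of no difference. PMAIP1, a p53 target of the BCL2 family that this list does not hold, was lower at 22.1 and 2.01 FPKM. CDKN1A also led the 21 genes of cyclin D and CDK inhibitors, of which 20 passed, 9 were higher and 2 lower, with a median of 0.80. CDKN1C, another inhibitor, was at 6.72 and 36.3 FPKM. Genes of proliferation itself showed few differences past 1. DNA replication genes had 33 of 34 passing with 0 higher, 2 lower and a median of -0.42, the lower ones being CCNE1 (18.2 and 6.28 FPKM) and RRM2 (83.4 and 38.6 FPKM). Mitosis genes had 31 of 31 passing with 1 higher, 0 lower and a median of 0.13, the higher one being MKI67 (19.5 and 40.2 FPKM), which was no longer past 1 under median-of-ratios scaling.

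No biosynthetic gene of the serine, heat shock or cholesterol lists was higher. Of 27 genes of serine, one-carbon and nucleotide synthesis, 27 passed, 0 were higher and 10 lower, with a median of -0.62. PHGDH, the first enzyme of serine synthesis, was at 69.6 FPKM in HEPs, compared with 399.5 FPKM in APLNR+ cells, a 5.74-fold lower level with a 95% interval of 5.49 to 6.01. PSAT1, which follows it, was at 92.6 and 18.98 FPKM, and CAD, of pyrimidine synthesis, at 42.2 and 15.3 FPKM. Heat shock and unfolded protein response genes had 26 of 30 passing, 0 higher and 10 lower, with a median of -0.90. ASNS, which makes asparagine and responds to amino acid shortage, was at 50.6 and 7.60 FPKM. HSPA5, the main chaperone of the endoplasmic reticulum, was at 244 and 90.8 FPKM, and HSPH1 at 62.2 and 12.2 FPKM. RefSeq windows existed for 25 of these 26 genes, and 4 of them held the heat shock element GAANNTTC, searched on both strands, which was in 4.41% of the windows of the protein-coding genes compared and 6.87% of all windows. The amino acid response element TGATGNAA, searched in the same way, was also in 4 of these 25 windows, against 1.68% and 3.67%. Of the 21 windows found for the serine list, 0 held the first motif and 1 held the second. Of 26 genes of cholesterol synthesis and uptake, 26 passed, 0 were higher and 5 lower, with a median of -0.62. NSDHL, of the later steps of synthesis, was at 46.1 and 17.2 FPKM. Fatty acid genes had 22 of 24 passing, 2 higher and 4 lower, and FASN, the fatty acid synthase, was at 379.6 and 116 FPKM.

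Genes of the SLC carrier families were more often lower than higher. Of 369 SLC genes, 229 passed, 27 were higher and 47 lower, which is 11.8% and 20.5% against 14.4% and 12.6% of all genes. SLC7A5, the large neutral amino acid carrier, was at 181 FPKM in the APLNR+ library and 4.50 FPKM in the CD31+CD34+ library, a 40.3-fold lower level with a 95% interval of 36.6 to 44.6, and its partner SLC3A2 was at 137 and 37.8 FPKM. SLC7A3, a carrier of cationic amino acids, was at 25.7 and 2.25 FPKM. SLC16A3, which exports lactate, and SLC20A1, a phosphate carrier, were higher, at 63.8 and 375 FPKM and at 25.3 and 161 FPKM. Iron genes had 30 of 33 passing, 3 higher and 9 lower, and TFRC, the transferrin receptor, was at 34.4 and 4.61 FPKM. TXNIP, an inhibitor of thioredoxin and of glucose uptake, was among the 30 largest differences upward. It was at 2.05 FPKM in APLNR+ cells against 218 FPKM in HEPs, a 107-fold higher level with a 95% interval of 85.5 to 135, and at 1.76 and 201 FPKM in BC1 and CD43+, so that it was low in the first 2 populations and high in the last 2. GPX1, a peroxide-reducing enzyme, was at 297 and 1506 FPKM.

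Few energy genes differed by 1 or more. Of 79 nuclear genes of oxidative phosphorylation, 78 passed, 3 were higher and 0 lower, with a median of 0.14. The 13 protein genes of the mitochondrial genome were all within 1 of no difference in this pair of libraries, and mitochondrial genes took 5.82% of the summed FPKM of APLNR+ and 5.80% of that of CD31+CD34+. Of 32 glycolysis and lactate genes, 29 passed, 3 were higher and 3 lower. ENO2 was higher at 14.9 and 95.6 FPKM and PKM, the pyruvate kinase, lower at 1635 and 545 FPKM. Cytosolic ribosomal protein genes had 84 of 86 passing, 1 higher and 1 lower, with a median of -0.05, the higher one being RPS27L, itself described as a p53 target (73.3 and 153 FPKM), and the lower one RPL22L1 (143 and 40.7 FPKM).

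**Figure D4:**
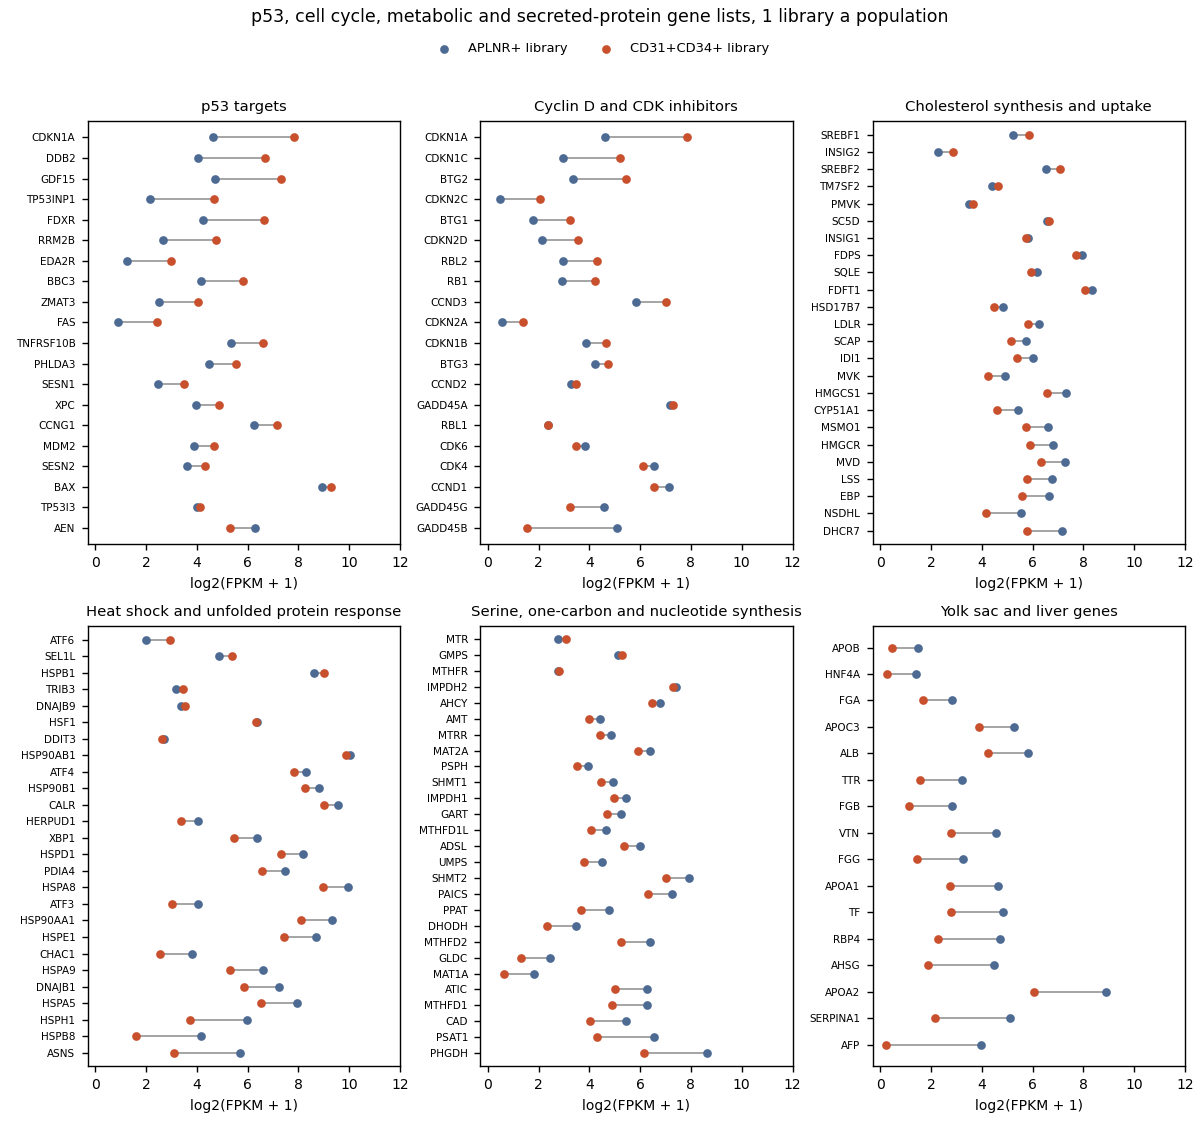
Level of the genes that passed the filter in 6 lists of stress, cell cycle, metabolism and secreted liver proteins, as log2(FPKM + 1) on the x axis, with blue points for the APLNR+ library and red points for the CD31+CD34+ library joined by a line. Red points lie to the right for CDKN1A and most p53 targets, and to the left for PHGDH, ASNS, NSDHL and each of the 16 yolk sac and liver genes.

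Interferon-stimulated genes were more often higher than lower. Of 37 interferon-stimulated genes, 24 passed, 7 were higher and 2 lower, with a median of 0.51. BST2, which tethers viruses to the cell, was at 241 FPKM in HEPs, compared with 23.8 FPKM in APLNR+ cells, and IFI16, a DNA sensor, at 12.8 and 96.2 FPKM. OAS1, another interferon-stimulated gene, was lower at 17.4 and 0.699 FPKM. Among receptors of interferon and microbial products and NF-kB genes, 24 of 35 passed, 9 were higher and 1 lower. These included TLR4, the endotoxin receptor (0.0945 and 9.19 FPKM), and SELE, the endothelial selectin (0.0422 and 10.8 FPKM). MHC class I genes had 19 of 21 passing, 3 higher and 2 lower, with a median of 0.07. These shares were near the 14.4% and 12.6% of all genes. HLA-E was at 14.7 and 159.8 FPKM and HLA-B at 26.2 and 96.5 FPKM, while reads of HLA genes can be shared between these near-identical genes, so single values are uncertain. CXCL12 and ACKR3, a chemokine and its scavenging receptor, were lower, at 21.3 and 0.301 FPKM and at 38.5 and 1.26 FPKM, in a list of 61 genes of which 12 passed, 4 were higher and 4 lower.

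Blood genes were present in the CD31+CD34+ library at levels that differed widely between genes. Of 22 leukocyte genes, 17 passed, 13 were higher and 3 lower, with a median of 3.03. LAPTM5, a lysosomal protein of blood cells, was at 1.30 FPKM in APLNR+ cells, 180.4 FPKM in HEPs and 205 FPKM in CD43+ HPCs. ARHGDIB, a gene of blood cells, was at 1.68, 129 and 321 FPKM in the same order. Of 14 megakaryocyte genes, 9 passed, 7 were higher and 1 lower, led by PF4, a platelet chemokine, which was listed at 0 in APLNR+ and reached 14.4 FPKM in CD31+CD34+. Of 19 erythroid genes, 10 passed, 7 were higher and 1 lower. HBE1, the embryonic beta-like globin, was at 0.148 FPKM in APLNR+ cells, 10.6 FPKM in HEPs and 5271 FPKM in CD43+ HPCs, and HBG2 shares sequence with HBG1, so its value of 9.69 FPKM is uncertain. SPN, the gene of CD43, was at 11.7 FPKM in HEPs and 92.4 FPKM in HPCs. Over 7 blood markers the summed level was 5.98 FPKM in APLNR+ cells, 133 FPKM in HEPs and 6691 FPKM in CD43+ HPCs. Most of the last sum was HBE1, followed by ITGA2B at 982 FPKM, so it says little about the other markers. Whether some sorted cells had already entered the blood lineage was not tested.

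Markers of other cell types were examined as measured facts beside these lists. The summed level of 6 endoderm and liver markers was 105.2 FPKM in APLNR+ cells and 26.4 FPKM in HEPs, and that of 5 pluripotency markers was 779 and 146 FPKM. Of the 6 endoderm and liver markers 5 were lower, but of the 5 pluripotency markers only 1, POU5F1. SOX2 and NANOG were under 1 FPKM in both libraries, so neither could be lower by 1 on this scale. In fragments they stood at about 37 and 13 in APLNR+ and at 0 in CD31+CD34+. Against a floor of 3 fragments, SOX2 was at least 13.4-fold and NANOG at least 4.56-fold lower in CD31+CD34+. Every one of the 16 yolk sac and liver genes that passed was lower in CD31+CD34+ (16 of 17 passed, median -1.80). APOA2 was at 470.0 FPKM in the APLNR+ library and 65.3 FPKM in the CD31+CD34+ library, and SERPINA1 at 33.4 and 3.48 FPKM. ALB, the albumin gene, was at 23.5, 56.3, 18.03 and 16.1 FPKM in BC1, APLNR+, CD31+CD34+ and CD43+, so that it was found in undifferentiated cells as well. HNF4A, the transcription factor of the hepatic program, was at 0.552, 1.63, 0.194 and 0.318 FPKM in the same order, and FOXA2 was under 1 FPKM in each of the 4. The plasma proteins named above, F10, SERPINC1, C3 and RBP4, were lower together with these genes, and the part of such RNA in their differences was not tested. Of 12 endoderm and mesendoderm genes that passed, of 16, 7 were lower and 3 higher, with a median of -2.15. By at least 2, 6 were lower and 1 was higher. Among the lower ones, GSC, of the organizer, was at 111 FPKM in APLNR+ cells and listed at 0 in CD31+CD34+, and OTX2 was at 82.8 and 1.0042 FPKM. Pluripotency genes had 17 of 24 passing, 0 higher and 11 lower, with a median of -1.42. POU5F1 was at 1997 FPKM in undifferentiated cells, then at 573 FPKM in APLNR+ cells against 1.87 FPKM in HEPs, a gene that has near-identical processed copies. LIN28A, an RNA-binding protein of stem cells, was in contrast still at 117 FPKM, against 159 FPKM in APLNR+.

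Among mesenchymal and cardiac neighbours, smooth muscle and pericyte genes had 15 of 18 passing, 3 higher and 3 lower, with a median of 0.24. ACTA2 was higher at 2.19 and 48.3 FPKM, while MYH11, the smooth muscle myosin, was at 0.0283 and 0.0221 FPKM and PDGFRB was at 5.50 and 6.69 FPKM. Cardiac genes had 11 of 21 passing, 1 higher and 5 lower. NKX2-5, a cardiac factor also reported in early hemogenic cells of the heart tube, was the higher one, at 9.77 and 69.2 FPKM, and HAND1 (357 and 5.57 FPKM) and MYL7 (51.7 and 1.39 FPKM) were lower. The summed level of 7 smooth muscle and pericyte markers was 157 and 145 FPKM, and that of 6 cardiomyocyte markers 71.4 and 72.8 FPKM. These near-equal sums hold opposite differences. Most of the first cardiomyocyte sum was MYL7 and most of the second was NKX2-5, and of the 6 markers 1 was higher and 2 lower. Of the 7 smooth muscle and pericyte markers 1 was higher, ACTA2, and 1 lower, and TAGLN alone was at 117 and 74.7 FPKM. Of 5 ectoderm markers, summing to 79.3 and 65.5 FPKM with NES, a gene of many progenitors, at 77.8 and 61.3 FPKM, the defining genes SOX1, PAX6 and NEUROG2 stayed under 1 FPKM in both libraries, while SOX10, a neural crest factor, was higher at 1.47 and 4.22 FPKM. Of 5 trophoblast markers, summing to 2.71 and 4.38 FPKM, CDX2, KRT7 and CGA also stayed under 1 FPKM. The 4 lymphatic markers summed to 14.5 and 202 FPKM, and most of the second sum was FLT4, a gene of vascular endothelium too, at 4.91 and 193 FPKM. PROX1, the lymphatic master factor, was higher at 0.981 and 5.17 FPKM, PDPN was lower at 8.54 and 3.69 FPKM, and LYVE1 was at 0.0299 and 0.128 FPKM.

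Several of the largest differences belonged to genes outside these lists. SAMSN1, an adaptor of blood cells, was at 128 FPKM in HEPs, compared with 0.0573 FPKM in APLNR+ cells, TM4SF1, a tetraspanin-like gene of endothelium, at 0.451 and 117 FPKM, and HOPX, a homeodomain-only factor, at 0.147 and 92.2 FPKM. GAD1, the enzyme that makes the neurotransmitter GABA, was at 4.21 FPKM in APLNR+ cells, 317 FPKM in HEPs and 585 FPKM in CD43+ HPCs. The others of the 30 upward were GMFG (6.36), GNG11 (5.63), HID1 (5.62), ZNF467 (5.59) and LCP2 (5.53), each given as its log2 difference. Downward, GRP, encoding gastrin-releasing peptide, was at 286 FPKM in APLNR+ and listed at 0 in CD31+CD34+, at least 736-fold lower against a floor of 3 fragments. MIXL1 was at 474 and 0.982 FPKM, and MESP1, the mesoderm factor, at 96.8 and 1.05 FPKM. SOCS1, an inhibitor of cytokine signaling, was at 135 and 2.82 FPKM. Log2 differences of the remaining genes downward were -6.34 for LZTS1, -5.71 for L1TD1, -5.50 for ZIC2, -5.41 for CNKSR3, -5.37 for SHISA9, -5.33 for FAM159B, -5.09 for PRSS8 and -5.52 for LINC00680.

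Noncoding genes added to both ends. Of 447 lincRNA genes compared, 23.9% were higher and 16.3% lower, against 14.4% and 12.6% of all genes, and of 497 processed pseudogenes 10.1% were higher and 21.7% lower. Outside the noncoding types, 92.1% of 38 immunoglobulin V genes and 100% of 10 immunoglobulin C genes were lower, and 0 were higher. Where this RNA came from was not tested. AC106864.1, now named MIR302CHG and the host of a stem cell microRNA cluster, was at 1555 FPKM in undifferentiated cells, then at 726 FPKM in the APLNR+ library and 2.73 FPKM in the CD31+CD34+ library. WNT5A-AS1 and HAS2-AS1 were lower together with WNT5A and HAS2, at 60.7 and 0.765 FPKM and at 75.4 and 1.20 FPKM. Whether the counting used strand is not given in the sources used here, so fragments of an antisense gene and of its overlapping partner could not be told apart. RN7SK, the small nuclear RNA that restrains transcription elongation (chromosome 6, 52995621 to 52995948), was at 372, 907, 5.92 and 12.2 FPKM in BC1, APLNR+, CD31+CD34+ and CD43+. RN7SL2, a signal recognition particle RNA and the most abundant gene of CD31+CD34+, was at 5743, 4096, 7786 and 10993 FPKM in the same order, within 1 of no difference between APLNR+ and CD31+CD34+. Both are short RNAs without a poly(A) tail, and how far their recovery differed between libraries was not tested. AL139099.5, with an annotated transcript of 300 bases, was at 99.5 and 0.0250 FPKM and was too short for a fragment estimate.

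**Figure D5:**
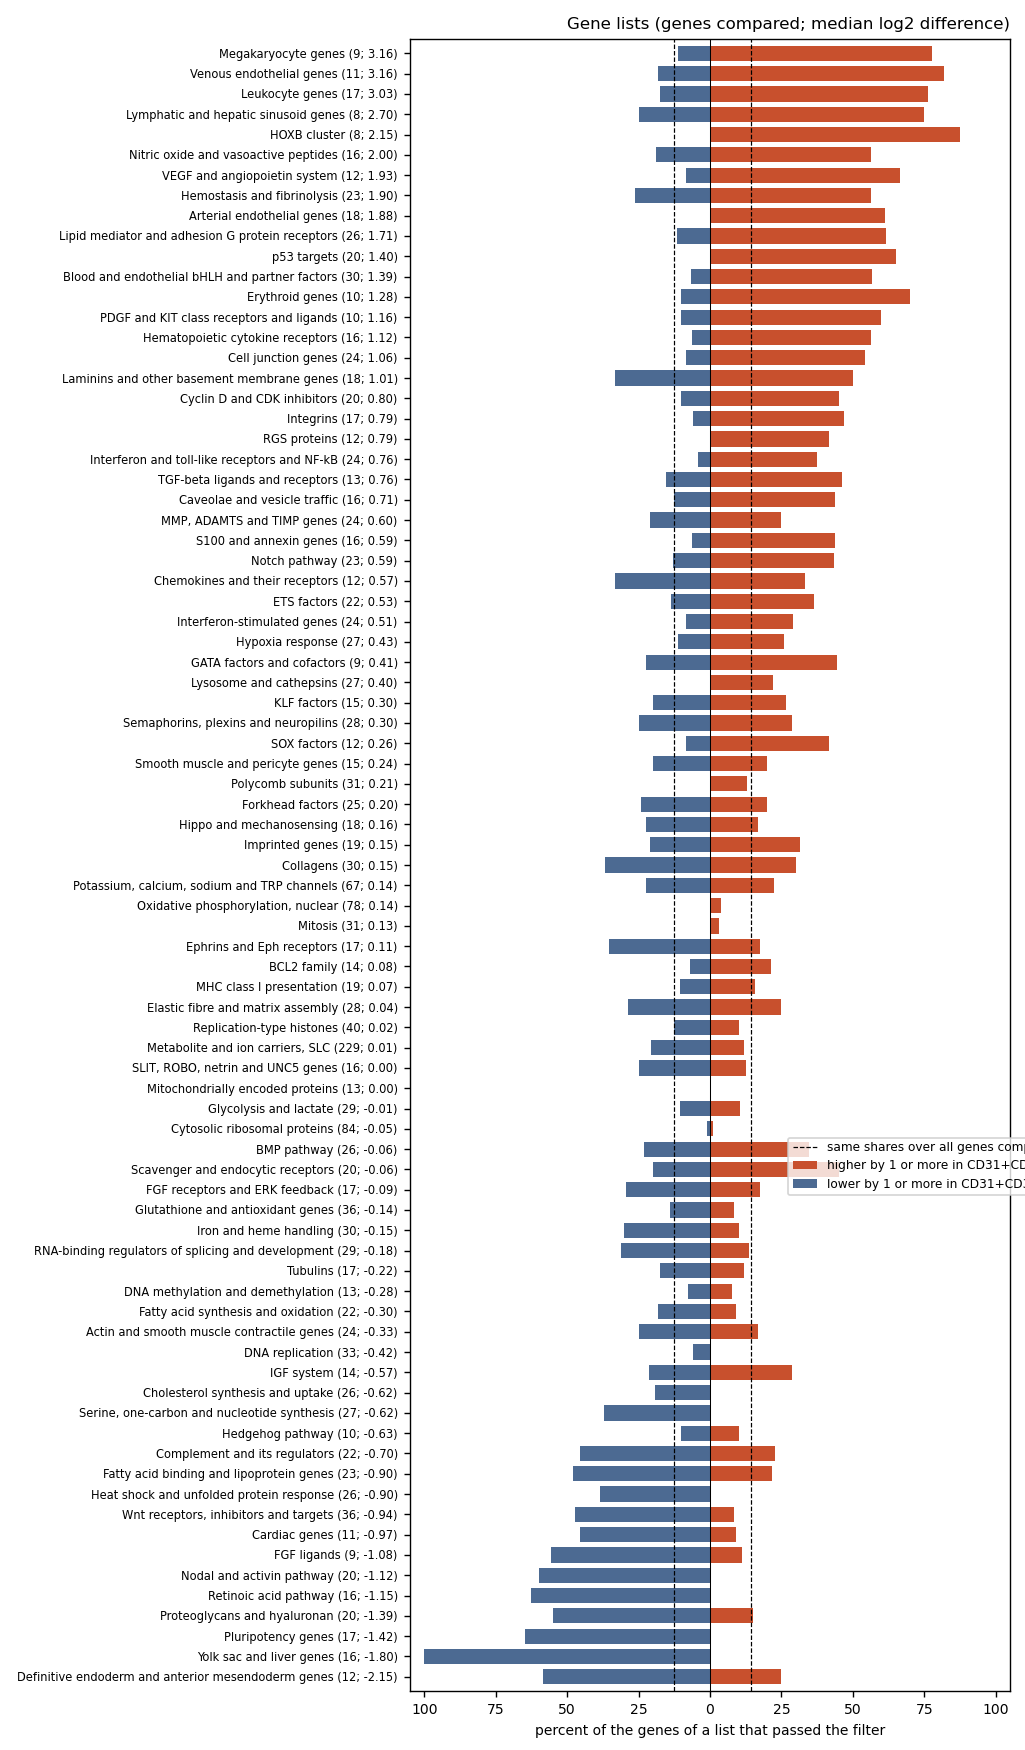
Percent of the genes of each list that were higher (red, to the right) or lower (blue, to the left) in CD31+CD34+ by at least 1, for lists with at least 8 genes past the filter. The number of genes and the median log2 difference stand in parentheses, and dashed lines mark the shares over all 15502 genes, 14.4% higher and 12.6% lower.

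Of 92 gene lists, 17 had a median difference of at least 1 and 10 of at most -1, and 2 had no gene past the filter. The plot of the lists shows endothelial, blood and HOXB lists at the top, the endoderm, yolk sac and liver, pluripotency, proteoglycan and retinoic acid lists at the bottom, and ribosomal, mitochondrial and mitosis lists near the middle with almost no gene past 1. Many genes stand in several lists, and with 1 library of each population these counts describe the 2 libraries and not the spread between cultures.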

How the data were processed

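RNA of undifferentiated BC1 cells and of 3 populations sorted from them was sequenced, and the authors deposited 1 table of FPKM values per gene with 1 column per library. The submitters' processing notes name BWA, Bowtie, RSEM and hg19, without versions, but of the 58274 gene identifiers 58008 were found in GENCODE 29, and the positions in the table were those of GRCh38. Depth was recovered from the spacing of low FPKM values (92.4% to 94.6% of them within 0.1 of a whole fragment in the 2 libraries compared), and fragment numbers also depend on an assumed transcript length.

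From the deposited FPKM values, rows of 1 gene identifier were summed, genes with at least 1 FPKM in either the APLNR+ or the CD31+CD34+ library were kept, and the difference of log2(FPKM + 1) was taken. With this pseudocount the fold change of low genes is understated. With 1 library per population nothing was tested and p-values are left out. A fold was given as at least a value where the lower library had no fragment, against a floor of 3 fragments. Intervals are exact binomial 95% intervals of the fragments. The 92 gene lists and the comparison were chosen with earlier results of these data known. Genes were named by rule: the 30 with the largest difference in each direction among those with at least 10 FPKM and transcripts of at least 300 bases, up to 4 members of each list per direction, every member of lists of 8 or fewer, the 15 most abundant genes of each library, and the marker genes. ACTB, APLN, BAX, CAV1, HOXD1, MDM2, NODAL, NOS3, NOTCH1, PGF, SLC3A2, SOX17, VEGFA and VEGFB were named outside this rule, after their values were seen. Some genes and lists are not reported here and are left out of the text and the plots. Whether the counting used strand is not given in the sources used here. Python 3.11.15, numpy 2.4.6, pandas 2.3.3, scipy 1.17.1 and matplotlib 3.10.9 were used, and the code was tested on simulated data. Alternatives were a pseudocount of 0.1, a filter of 5 FPKM or none, values rescaled to a common sum (TPM), median-of-ratios scaling, leaving out mitochondrial genes, protein-coding genes only, and the largest row of a gene in place of the sum.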

Additional observations from a re-analysis of the deposited data

How the results depend on the processing

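With 1 library per population, leaving out a replicate was not possible. No paired analysis was possible because the result comes from no test and no group holds more than 1 library. No list with a median difference of 1 or more, in either direction, changed sign under the 8 alternatives. A pseudocount of 0.1 in place of 1 gave 1340 genes higher by at least 2 and 1218 genes lower by at least 2, against 699 and 539, since it widens the differences of low genes. A filter of 5 FPKM left 1288 genes lower by at least 1, against 1957, since fewer genes were compared. The median change of all genes, 0.03, was 0 with no filter, 0.0029 with a filter of 5 FPKM, 0.059 as TPM, 0.056 without mitochondrial genes and 0.014 under median-of-ratios scaling. Of the 90 list medians, 3 moved outside their 95% interval with a pseudocount of 0.1, 2 with a filter of 5 FPKM, 1 with no filter and 1 as TPM, but the intervals of short lists are wide, and many medians within them moved by more than 1.5 times. Of the 27 lists with a median of 1 or more in size, 15 did so with no filter, where genes at or near 0 FPKM enter the lists. Under that setting the median fell from 1.93 to 0.61 for the VEGF and angiopoietin system, from 2.00 to 0.61 for nitric oxide and vasoactive peptides, from 2.70 to 0.16 for lymphatic and hepatic sinusoid genes, from 3.03 to 1.33 for leukocyte, 1.28 to 0.52 for erythroid and 3.16 to 1.56 for megakaryocyte genes, from 3.16 to 1.77 for venous genes and from 1.01 to 0.40 for laminins and other basement membrane genes. The negative medians went from -2.15 to -0.62 for definitive endoderm, -1.08 to -0.08 for FGF ligands, -1.23 to -0.03 for Wnt ligands, -1.49 to -0.04 for T-box factors, -1.42 to -0.88 for pluripotency genes, -1.39 to -0.38 for proteoglycans and hyaluronan, and -1.13 to 0 for keratins. With a pseudocount of 0.1, 7 of the 27 did so, reaching 2.42 from 1.39 for bHLH and partner factors, 2.95 from 1.71 for lipid mediator and adhesion G protein receptors, 1.86 from 1.16 for PDGF and KIT class genes, -2.40 for FGF ligands, -3.55 for Wnt ligands, -1.69 from -1.12 for the Nodal and activin pathway and -2.18 for pluripotency genes. With a filter of 5 FPKM, 3 of the 27 did so, at 2.29 for the bHLH list, 2.94 for the G protein receptors and 0.24 for the PDGF and KIT class, and the chemokine list went from 0.57 to -4.11. The share of a list that was higher moved outside its 95% interval for 5 lists with a filter of 5 FPKM, 3 with no filter and 1 each with a pseudocount of 0.1, as TPM and under median-of-ratios scaling, and the share that was lower for 6 lists with a filter of 5 FPKM and 4 with no filter. Genes of a few fragments, such as CER1 in CD31+CD34+ or SOST in APLNR+, have folds known only within their intervals.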

Other observations

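Several lists not described above also held differences between the 2 libraries. Of 28 hypoxia response genes, 27 passed, 7 were higher and 3 lower in CD31+CD34+, with a median log2 difference of 0.43. EPAS1, the endothelial hypoxia-inducible factor, was at 0.403 FPKM in the APLNR+ library and 6.75 FPKM in the CD31+CD34+ library, and EGLN3, which marks such factors for degradation, was at 51.2 and 3.93 FPKM. Hematopoietic cytokine receptors had 16 of 21 genes passing, 9 higher and 1 lower, with a median of 1.12. IL6R, the interleukin-6 receptor and the lower one, was at 7.49 and 0.293 FPKM. In the list of PDGF and KIT class genes, 10 of 13 passed, 6 were higher and 1 lower. KIT, the stem cell factor receptor, was at 1.59 and 7.79 FPKM, and PDGFRA, of mesoderm, at 14.3 and 4.96 FPKM. LPL, the lipoprotein lipase of capillary walls, was at 0.208 and 35.9 FPKM, while FABP5, a fatty acid carrier, was at 609.5 and 39.9 FPKM, in a list of 29 genes of which 23 passed, 5 were higher and 11 lower.

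Regulators of splicing differed in both directions. ESRP1 and ESRP2, the epithelial splicing factors, were lower at 6.66 and 0.466 FPKM and at 8.64 and 0.503 FPKM, and MBNL1 and MBNL2, which promote differentiated splicing patterns, were higher at 1.01 and 8.88 FPKM and at 0.705 and 15.7 FPKM. Of 33 such genes, 29 passed, 4 were higher and 9 lower. Only 4 of 50 keratin genes passed, and KRT19, of simple epithelium, was at 228 and 45.5 FPKM. Polycomb subunits had 31 of 31 passing, 4 higher and 0 lower, with a median of 0.21 and PHF19 at 5.31 and 26.2 FPKM. The share of them that was higher was near the 14.4% of all genes. TET1, an enzyme that removes DNA methylation, was lower at 8.05 and 2.02 FPKM, and its relative TET2, the methylation gene known from blood, was higher at 0.863 and 2.93 FPKM. Among BCL2 family genes, 14 of 21 passed, 3 were higher and 1 lower. BCL2L1, which protects from apoptosis, was at 24.5 and 109 FPKM. Ephrin genes also held opposite differences, with EFNA1 at 4.73 and 36.9 FPKM and EPHB2 at 37.7 and 2.92 FPKM, and 17 of 22 passed with 3 higher and 6 lower. PLAGL1, an imprinted zinc finger gene, was at 1.4970 and 43.1 FPKM, and PEG10, another imprinted gene, at 165 and 6.83 FPKM.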
